A study of Bos taurus and Sus scrofa with 10 samples.

Results

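The cyclins that act in G1 and S phase (CCND1, CCND2, CCND3, CCNE1, CCNE2, CCNA1 and CCNA2), their kinase CDK2 and the inhibitors CDKN1A and CDKN1B were followed from the oocyte to the blastocyst in cow and pig. The 10 genes were chosen by symbol, as the rows of the deposited tables that carry those names. All 10 were found among 22845 rows of the cow table, and 8 among 21867 rows of the pig table. CCNE1 and CCNA2 in the pig were not analysed here. Each member had a single row in each table where it was found.

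A cell leaves G1 when D-type cyclins, bound to CDK4 or CDK6, phosphorylate the retinoblastoma protein and release E2F transcription factors. E2F activity raises the E cyclins, which activate CDK2 at the start of S phase, and the A cyclins then take over CDK2 during replication. CDKN1A (p21) and CDKN1B (p27) bind and restrain these complexes. Early cleavage divisions have short gap phases and rely at first on RNA and protein stored in the oocyte.

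Total RNA was sequenced from oocytes, embryos of 2-4 and of 8-16 cells, morulae and blastocysts of both species. With 1 library for each of the 5 stages in each species, the 10 libraries have no replicates. No strain, treatment, age or number of embryos in a library is given in the sources used here. Differences between stages therefore have no replicate check, no p-value is given, and every interval covers counting error only.

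Levels are given as reads per 1000000 reads of the library (RPM), recovered from the deposited log2 values. They are not divided by gene length, and both tables were scaled separately, so a level is set against other stages of the same gene and species only. Read totals ran from 3002751 in the pig morula to 14182046 in the cow blastocyst. A floor of 3 reads, the upper limit that a count of 0 allows, lay between 0.212 and 0.999 RPM. Mitochondrial gene rows held a share of all reads that ran from 2.74% in the cow 2-4 cell library to 30.2% in the cow blastocyst library. The summed level of oocyte markers (ZP2, GDF9, BMP15 and others) went from 8568 to 1.90 RPM between oocyte and blastocyst in the cow and from 9601 to 59.5 RPM in the pig. That of blastocyst markers (KRT8, KRT18, GATA3 and others) went from 40.0 to 3356 RPM and from 26.9 to 7450 RPM. In whole embryos, fewer cells of a type and less RNA per cell cannot be told apart.

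A difference is the later minus the earlier stage on the log2(RPM + 1) scale, which understates changes of low genes. It was examined where at least 1 of both libraries reached 1 RPM, and a gene is said to have risen or fallen when the difference was at least 2 in size, a 4-fold change. Folds are ratios of RPM with 95% exact intervals from the read counts. A fold against 0 reads is taken at the floor, and the lower limit of its 95% exact interval is given beside it.

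**Figure D1:**
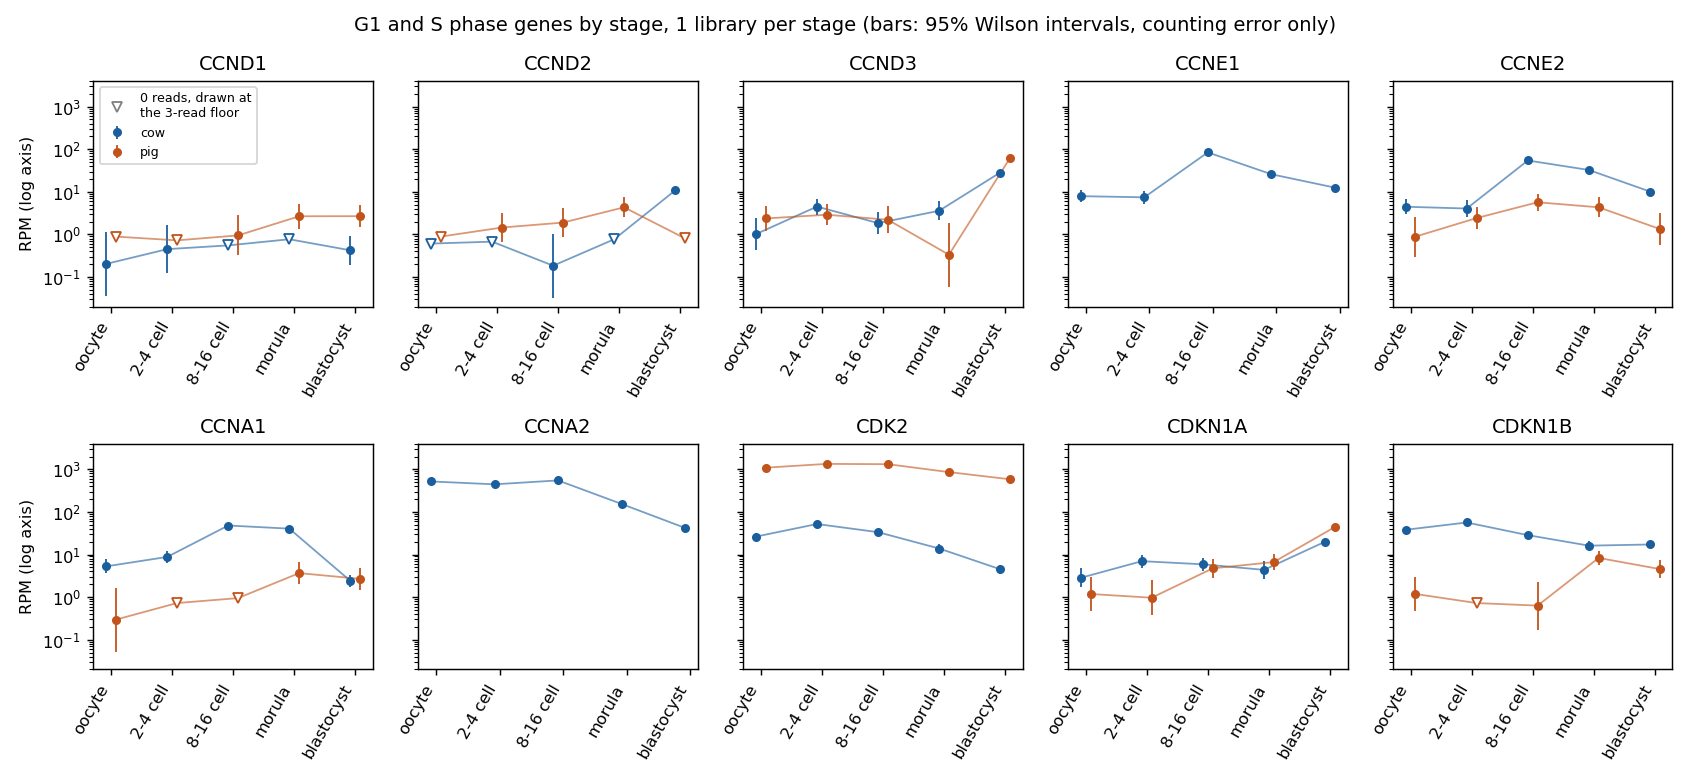
RPM (log axis) of each gene by stage in cow (blue) and pig (orange), 1 library per point, with 95% Wilson intervals as bars and open triangles at the 3-read floor where a library had 0 reads. CCND3 and CDKN1A peaked in the blastocyst library of both species, while cow CCNE1, CCNE2 and CCNA1 peaked in the 8-16 cell library.

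No D cyclin passed 4.51 RPM before the blastocyst, where CCND3 rose in both species. CCND2 rose there in the cow only and had 0 reads in the pig, and CCND1 stayed low in both. CCND3, a D cyclin that activates CDK4 and CDK6, lay on cow chromosome 23 (UMD3.1, 15707556 to 15714372, minus strand). Its cow levels were 1.01 RPM in the oocyte, 4.51 in the 2-4 cell, 1.84 in the 8-16 cell, 3.59 in the morula and 28.4 in the blastocyst library. The blastocyst stood above all 4 earlier libraries, and among these the neighbours in order of level could not be told apart by counting error. By stage, the 2-4 cell level was 4.44-fold the oocyte level (1.62 to 15.1). The 8-16 cell level was 2.45-fold lower than the 2-4 cell level (1.09 to 5.86). CCND3 rose 7.91-fold (4.66 to 14.6) from morula to blastocyst and 28.0-fold (11.9 to 86.8) from oocyte to blastocyst.

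In the pig, CCND3 (chromosome 7, Sscrofa11.1, 37088204 to 37095027, minus strand) had 2.37 RPM in the oocyte, 2.90 in the 2-4 cell, 2.21 in the 8-16 cell, 0.333 in the morula and 61.9 in the blastocyst library. Again the blastocyst library stood apart and the other 4 could not be ordered by neighbours. It rose 26.1-fold (13.1 to 61.3) from oocyte to blastocyst. The morula had only 1 read, so the ratio of 186 from morula to blastocyst carries an interval of 33.0 to 7377. The pig row shares 330 bases with BYSL on the other strand, whose levels were between 5.56 and 22.3 RPM. The handling of strand is not given in the sources used here, so reads from the shared bases cannot be assigned. The part of BYSL in the CCND3 values was not tested.

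CCND2, another D cyclin, changed in opposite directions between morula and blastocyst. In the cow (chromosome 5, UMD3.1, 106253907 to 106276819, minus strand) it had 0 reads in the oocyte, 2-4 cell and morula libraries, 0.184 RPM (1 read) in the 8-16 cell library and 10.9 RPM (154 reads) in the blastocyst library. The blastocyst was 14.1-fold higher than the morula at the floor, with a lower limit of 11.3, a rise of 3.27 on the log2 scale. In the pig (chromosome 5, Sscrofa11.1, 66087379 to 66114616, minus strand) the levels were 0 reads, 1.45, 1.90 and 4.33 RPM from oocyte to morula, then 0 reads in the blastocyst library. The morula value rests on 13 reads. The pig blastocyst was 5.38-fold lower than the morula at the floor, with a lower limit of 3.79 that lies under 4-fold. The difference was -2.10. That call ended at -1.50 when the pseudocount was 2, at -1.93 under median scaling and at -1.87 under quantile normalisation. The difference between the species was not tested, as each stage had 1 library.

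CCND2 is also known as the D cyclin of granulosa cells, which surround the oocyte. Both oocyte libraries had 0 CCND2 reads, which allows up to 0.609 RPM in the cow and 0.888 RPM in the pig. The 20 cumulus and granulosa markers found in the cow summed to 531, 480, 151, 83.3 and 184 RPM from oocyte to blastocyst, with 7 at 0 reads in the oocyte, AMH, FOXL2, INHA and CYP11A1 among them. STAR (157 RPM), HAS2 (141 RPM), VCAN (116 RPM), GJA1 (51.9 RPM) and FSHR (37.3 RPM) made up most of the cow oocyte sum. Of the 11 markers tested between the cow morula and blastocyst, 4 rose and 1 fell. Beside CCND2, CYP11A1 went from 0.256 to 16.6 RPM, LHCGR from 6.92 to 16.1 RPM and CYP19A1 from 5.90 to 48.8 RPM. COL1A2 went from 0 reads to 14.0 RPM and COL4A1 from 3.85 to 38.1 RPM. VCAN went from 22.1 RPM to 0 reads. HAS2, AMH and FOXL2 also had 0 reads in that blastocyst, but held at most 1 read in the morula. The 14 found in the pig summed to 166, 129, 206, 358 and 355 RPM, with 7 at 0 reads in the oocyte, INHA and CYP11A1 again among them. In the pig VCAN (101 RPM) and STAR (43.2 RPM) made up most of the oocyte sum. The markers named here were picked out after their values were seen, and their part in the CCND2 values was not tested.

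CCND1, the D cyclin best known as a growth-factor target, was low throughout. The cow row (chromosome 29, UMD3.1, 47544380 to 47553820, plus strand) held 1, 2, 0, 0 and 6 reads from oocyte to blastocyst, at most 0.451 RPM, and entered no comparison. The pig row (chromosome 2, Sscrofa11.1, 3620462 to 3633470, minus strand) held 0, 0, 3, 8 and 10 reads, which is 0.948, 2.66 and 2.68 RPM in the last 3 libraries. The pig blastocyst was 3.02-fold higher than the oocyte at the floor, with a lower limit of 2.03. The difference of 1.54 missed the threshold and reached 2.05 with a pseudocount of 0.5. The pig row lies wholly within SHANK2 on the other strand, whose levels ran from 153 to 286 RPM. The part of SHANK2 in the CCND1 values was not tested.

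The E cyclins formed a peak in the cow 8-16 cell library. CCNE1, an activator of CDK2 at S phase entry (chromosome 18, UMD3.1, 40565286 to 40574820, plus strand), had 7.91 RPM in the oocyte, 7.43 in the 2-4 cell, 84.5 in the 8-16 cell, 25.9 in the morula and 12.6 in the blastocyst library. It rose 11.4-fold (7.98 to 16.7) from the 2-4 cell to the 8-16 cell library. The morula was then 3.26-fold lower (2.62 to 4.09) and the blastocyst 2.06-fold lower again (1.60 to 2.65), steps that stayed within the threshold of 2. Only the oocyte and 2-4 cell levels could not be told apart.

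CCNE2, the second E cyclin (chromosome 14, UMD3.1, 71808697 to 71818065, minus strand), followed the same order of stages in the cow. Its levels were 4.46, 4.06, 54.5, 32.6 and 10.2 RPM from oocyte to blastocyst. It rose 13.4-fold (8.35 to 23.0) into the 8-16 cell library. The morula was 1.67-fold lower (1.35 to 2.08) and the blastocyst 3.21-fold lower than the morula (2.51 to 4.10). Oocyte and 2-4 cell levels again could not be told apart.

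Pig CCNE2 (chromosome 4, Sscrofa11.1, 41802994 to 41821874, plus strand) rested on 3, 10, 18, 13 and 5 reads. Its levels were 0.888, 2.42, 5.69, 4.33 and 1.34 RPM, with the highest value also in the 8-16 cell library. Ordered by level, no neighbours could be told apart, and no difference between stages compared reached the threshold. By stage, the 8-16 cell level was 2.35-fold the 2-4 cell level (1.03 to 5.71), and the blastocyst was 3.23-fold lower than the morula (1.08 to 11.6). The row shares 27 bases with INTS8 on the other strand, which was highest in the morula at 78.3 RPM.

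Of the cow A cyclins, only CCNA1 rose into the 8-16 cell library, and both had their lowest level in the blastocyst. CCNA1, an A cyclin known mostly from the germ line (chromosome 12, UMD3.1, 25129699 to 25140597, minus strand), had 5.27, 8.79, 48.0, 40.5 and 2.40 RPM from oocyte to blastocyst. It rose 5.47-fold (3.89 to 7.87) into the 8-16 cell library and fell 16.9-fold (11.6 to 25.3) from morula to blastocyst. The 8-16 cell and morula levels could not be told apart. CCNA2, the A cyclin of most dividing cells (chromosome 6, UMD3.1, 3413086 to 3419194, plus strand), had 520.5, 445, 550.2, 154 and 42.2 RPM. Its first 3 libraries were high, and it fell 12.3-fold (11.3 to 13.5) from oocyte to blastocyst. That decline came in 2 similar steps, 3.57-fold lower (3.27 to 3.90) in the morula and 3.66-fold lower (3.26 to 4.10) in the blastocyst, neither of which reached the threshold alone.

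Pig CCNA1 (chromosome 11, Sscrofa11.1, 12395872 to 12405399, plus strand) held 1, 0, 0, 11 and 10 reads from oocyte to blastocyst. The morula had 3.66 RPM and the blastocyst 2.68 RPM. The morula was 3.87-fold higher than the 8-16 cell library at the floor, with a lower limit of 2.65. The difference of 1.86 missed the threshold. It reached the threshold with a pseudocount of 0.5 (2.41), with scaling to non-mitochondrial reads (2.11) and with 0 reads taken as 0 (2.22). The blastocyst was 9.06-fold the oocyte level, on 1 oocyte read (1.29 to 393).

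CDK2, the kinase that E and A cyclins activate, was highest in the 2-4 cell library of both species. In the cow (chromosome 5, UMD3.1, 57664374 to 57669057, minus strand) its levels were 26.4, 52.04, 33.5, 13.8 and 4.51 RPM from oocyte to blastocyst. All neighbours in this order could be told apart by counting. CDK2 fell 5.84-fold (4.30 to 8.01) from oocyte to blastocyst, after a 1.97-fold higher level (1.59 to 2.47) in the 2-4 cell library.

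The pig CDK2 row (chromosome 5, Sscrofa11.1, 21364387 to 21392707, plus strand) held 1096, 1344, 1323, 863 and 585 RPM. The 2-4 cell and 8-16 cell levels could not be told apart. The blastocyst was 1.87-fold lower than the oocyte (1.78 to 1.98), a difference of -0.90 that missed the threshold. The pig row spans 28321 bases against 4684 in the cow. In the cow table RAB5B lies between CDK2 and SUOX, with 44.2, 84.5, 56.1, 30.5 and 15.9 RPM, whereas in the pig table SUOX is the next row after CDK2. Whether RAB5B reads are counted in the pig CDK2 row was not tested. The row also shares 601 bases with PMEL on the other strand, which had at most 6.17 RPM.

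The inhibitor CDKN1A, which binds and restrains cyclin-CDK complexes, rose between oocyte and blastocyst in both species. In the cow (chromosome 23, UMD3.1, 10560499 to 10568780, plus strand) its levels were 2.84, 6.98, 5.89, 4.36 and 20.03 RPM. The blastocyst stood above the other 4 libraries, whose neighbours in order could not be told apart. It rose 7.05-fold (4.13 to 13.1) from the oocyte. The blastocyst was 4.59-fold higher than the morula (2.82 to 8.00), a difference of 1.97 just under the threshold, and above it with a pseudocount of 0.5 (2.08), median scaling (2.09) or scaling to non-mitochondrial reads (2.33).

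Pig CDKN1A (chromosome 7, Sscrofa11.1, 32359455 to 32362271, plus strand) had 1.18, 0.967, 4.74, 6.66 and 44.2 RPM from oocyte to blastocyst. It rose 6.64-fold (4.16 to 11.2) from morula to blastocyst and 37.4-fold (14.3 to 139) from the oocyte. The 8-16 cell library was 4.90-fold higher than the 2-4 cell library (1.56 to 20.3), on 15 and 4 reads, a difference of 1.54 under the threshold. The blastocyst library held 165 reads and stood apart from all others.

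The inhibitor CDKN1B, a CDK inhibitor held high in many resting cells, took different courses in the 2 species. In the cow (chromosome 5, UMD3.1, 97577140 to 97582322, minus strand) its levels were 38.1, 56.5, 28.5, 16.2 and 17.2 RPM. None of its cow steps reached the threshold, and the blastocyst was 2.22-fold lower than the oocyte (1.82 to 2.69). Morula and blastocyst levels could not be told apart. In the pig (chromosome 5, Sscrofa11.1, 59731208 to 59736685, minus strand) it held 4, 0, 2, 25 and 17 reads, or 1.18, 0, 0.632, 8.33 and 4.56 RPM. It rose from the 8-16 cell library to the morula, by 2.51 on the log2 scale, with a ratio of 13.2 on 2 reads (3.29 to 115). That call ended with a pseudocount of 2 (1.97). The pig blastocyst was 3.85-fold the oocyte level (1.26 to 15.7), a difference of 1.35.

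**Figure D2:**
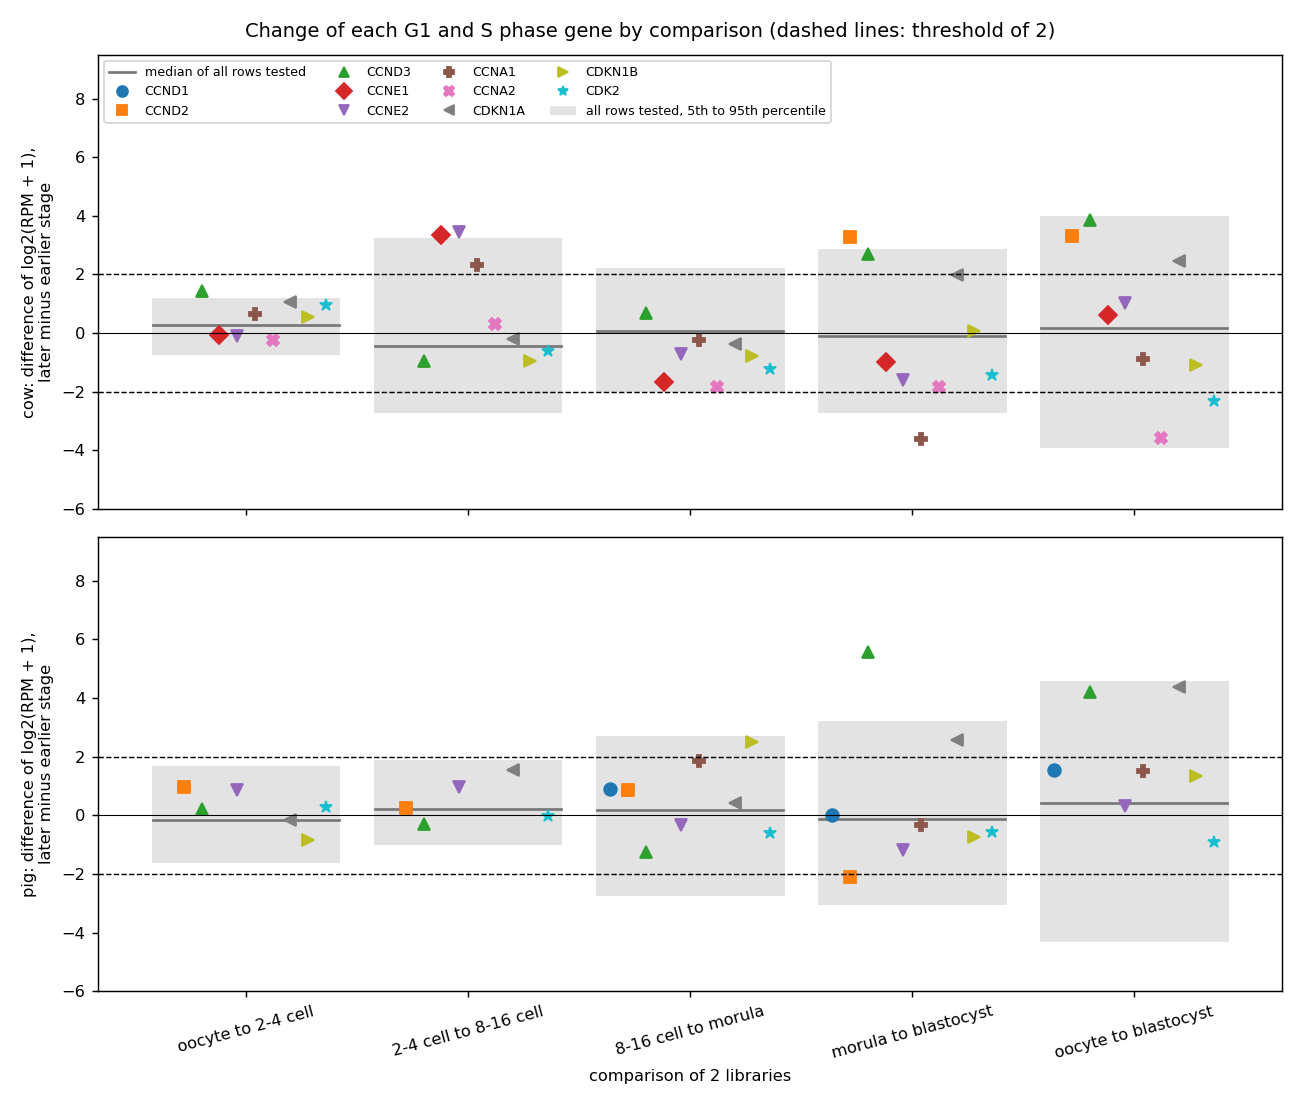
Difference of log2(RPM + 1), later minus earlier stage, for each gene in 5 comparisons in cow (top) and pig (bottom), with the 5th to 95th percentile of all rows tested as a grey band, their median as a grey line and the threshold of 2 as dashed lines. The largest rise among these genes was that of pig CCND3 from morula to blastocyst (5.56), and cow CCNA1 had the largest fall (-3.61).

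The number of members past the threshold in each comparison is set beside the share of all rows tested that passed it. From oocyte to 2-4 cell, 0 of 8 cow members tested and 0 of 6 pig members tested passed the threshold, against 0.374% and 5.43% of all rows. From 2-4 cell to 8-16 cell, 3 of 8 cow members (CCNE1, CCNE2 and CCNA1) rose and none fell, while 27.2% of all cow rows passed in either direction and 12.6% rose. In the pig at the same step 0 of 5 members passed, against 4.87% of all rows. The difference between the species at this step was not tested.

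From 8-16 cell to morula, 0 of 8 cow members passed, against 11.8% of all rows. In the pig 1 of 8 (CDKN1B) rose, against 23.3% of all rows in either direction and 12.0% higher. That pig count was 2 with CCNA1 added under the settings named above and 0 with a pseudocount of 2. From morula to blastocyst, 2 of 9 cow members rose (CCND2 and CCND3) and 1 fell (CCNA1), where 23.4% of all rows passed, 11.9% higher and 11.5% lower. In the pig, 2 of 8 rose (CCND3 and CDKN1A) and 1 fell (CCND2), where 27.6% of all rows passed, 13.8% in each direction.

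Between oocyte and blastocyst, 5 of 9 cow members passed, against 40.2% of all rows: CCND2, CCND3 and CDKN1A rose, and CCNA2 and CDK2 fell. Of all cow rows 21.8% rose and 18.4% fell. In the pig 2 of 7 passed (CCND3 and CDKN1A, both higher), against 45.2% of all rows, 26.0% higher and 19.2% lower. The comparisons share libraries, as each middle stage enters 2 steps and the oocyte and blastocyst enter a further comparison. The median difference of the members tested was 0.60 in the cow and 1.51 in the pig, beside 0.18 and 0.43 over all rows tested. The members' median moved between 0.19 (quantile normalisation) and 1.01 (scaling to non-mitochondrial reads) in the cow. In the pig it moved between 0.96 (quantile normalisation) and 4.22 (a minimum of 5 RPM, which left 3 members, of which 2 rose). CCND1 in the cow and CCND2 in the pig were under 1 RPM in both libraries and are not in these counts. Without the 4 pig members whose rows overlap another row, 1 of 3 passed in the pig (CDKN1A).

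Of the 6 members tested from oocyte to blastocyst in both species, 4 had the same direction. CCND3, CCNE2 and CDKN1A were higher in the blastocyst of both and CDK2 was lower in both. The direction of pig CCNE2 could not be told by counting, at 1.51-fold (0.294 to 9.72) on 3 and 5 reads. CCNA1 and CDKN1B were lower in the cow blastocyst and higher in the pig one. Among all shared symbols, 5866 of 8567 (68.5%) had the same direction. Without the overlapping pig rows, 1 of 3 members (CDKN1A) had the same direction.

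**Figure D3:**
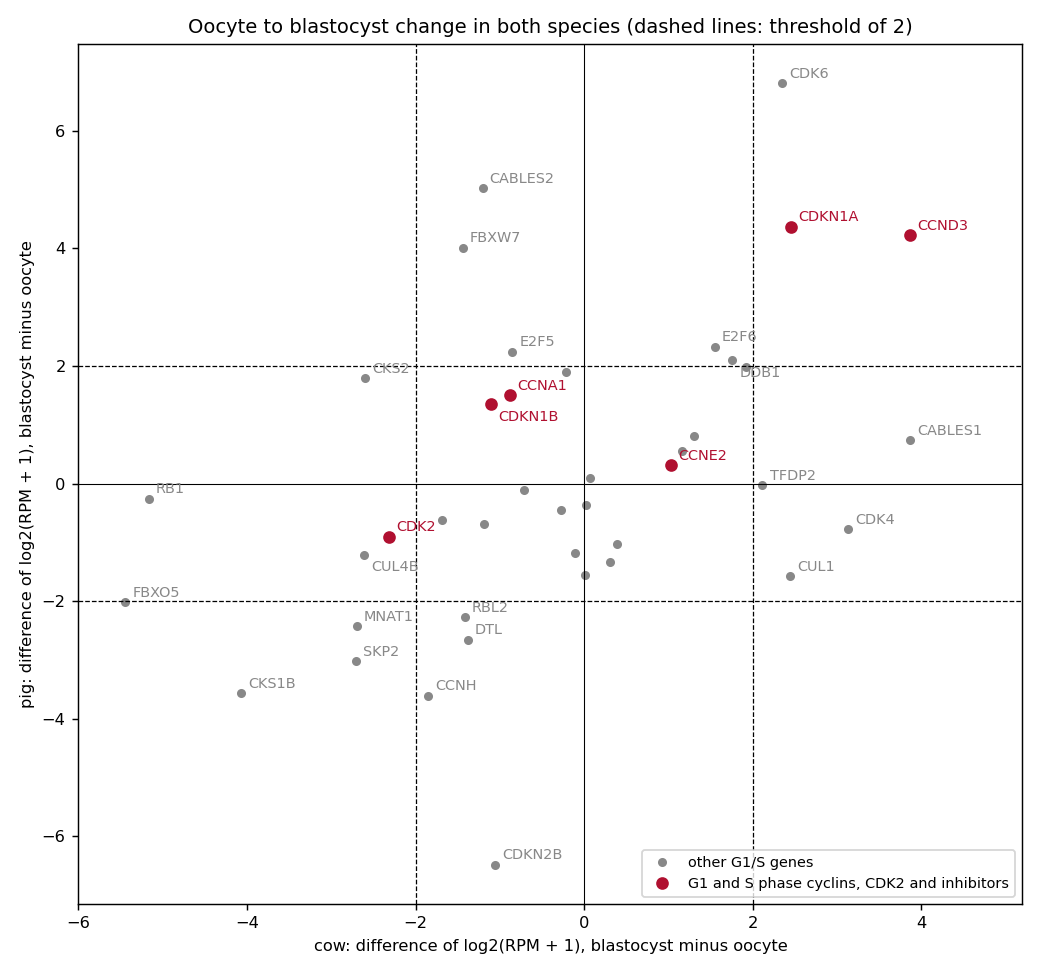
Oocyte to blastocyst difference of log2(RPM + 1) in cow (horizontal) against pig (vertical) for the genes tested in both species, with members in red, other G1/S genes in grey and dashed lines at the threshold of 2. CDKN1A, CCND3 and CDK6 lie above 2 in both species, and MNAT1, SKP2, CKS1B and FBXO5 lie under -2 in both.

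The other genes of the G1/S pathway were described by a list of 49 that holds the CDKs, INK4 inhibitors, retinoblastoma and E2F families and the ubiquitin ligases of this transition. From oocyte to blastocyst, 6 of 44 tested rose and 7 fell in the cow, and 7 of 38 rose and 8 fell in the pig. These shares stood beside the 40.2% of cow rows and 45.2% of pig rows that passed in either direction. With scaling to non-mitochondrial reads, 10 of 45 rose and 8 fell in the cow, and 9 of 38 rose and 7 fell in the pig. The median difference of the list was -0.36 in the cow, 0.07 there with scaling to non-mitochondrial reads, and -0.40 in the pig.

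In that list, 5 genes passed in both species with a peak of at least 10 RPM, all in the same direction. Of the 35 genes of the list tested in both species, 23 (65.7%) had the same direction, beside 68.5% of all shared symbols. CDK6, the partner kinase of D cyclins, rose in both. Its cow levels were 0.406, 0.676, 11.8, 41.3 and 6.13 RPM from oocyte to blastocyst, with the peak in the morula. The cow difference of 2.34 became 1.76 with a pseudocount of 2, which ended its call. Its pig levels were 1.18, 5.56, 2.53, 77.3 and 245 RPM, with the peak in the blastocyst. SKP2, the ubiquitin ligase subunit that targets CDKN1B, fell in both. It had 262, 288, 112, 61.04 and 39.3 RPM in the cow and 251, 329, 226, 133 and 30.03 RPM in the pig.

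CKS1B, the cofactor of SKP2, fell as well, with 212, 214, 42.5, 25.9 and 11.6 RPM in the cow and 397, 32.4, 52.1, 49.6 and 32.7 RPM in the pig. The pig decline lay between the oocyte and the 2-4 cell library. The pig rows of SKP2 and CKS1B overlap LMBRD2 and SHC1. MNAT1, an assembly factor of the CDK-activating kinase, fell from 323 to 48.9 RPM in the cow and from 217 to 39.4 RPM in the pig. FBXO5, an inhibitor of the anaphase-promoting complex, fell from 892 to 19.5 RPM in the cow and from 220 to 53.4 RPM in the pig, where its difference of -2.02 lay at the threshold and became -1.91 with scaling to non-mitochondrial reads.

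A list of 21 S phase targets of E2F, genes of nucleotide synthesis and replication origins, gave 2 higher and 3 lower of 21 tested in the cow and 2 higher and 5 lower of 17 in the pig, beside 40.2% and 45.2% of all rows in either direction. With scaling to non-mitochondrial reads the cow counts were 4 higher and 1 lower, and with quantile normalisation 2 higher and 1 lower. Its cow median of -0.18 became 0.22 with scaling to non-mitochondrial reads, and its pig median was -0.69. The level of TK1, thymidine kinase, rose from 0.406 RPM (2 reads) to 16.6 RPM in the cow and from 0.296 RPM (1 read) to 39.9 RPM in the pig. CDC6 and CDC7, which license and fire replication origins, fell in both. CDC6 went from 85.8 to 13.4 RPM in the cow and from 59.2 to 12.6 RPM in the pig. CDC7 had its cow peak in the morula (406 RPM) and went from 253 to 56.4 RPM between oocyte and blastocyst, and in the pig from 52.4 to 3.49 RPM. The cow CDC7 call ended at -1.76 under scaling to non-mitochondrial reads and at -1.84 under quantile normalisation. TK1, CDC6 and CDC7 were picked out after their values were seen. The pig TK1 row overlaps SYNGR2.

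Mitotic cyclins and kinases, a list of 12, gave 2 higher and 7 lower of 11 tested in the cow and 1 higher and 5 lower of 9 in the pig. Of all rows, 18.4% fell in the cow and 19.2% in the pig. The cow count of those that fell was 5 with scaling to non-mitochondrial reads, and the pig count was 7 with median scaling or quantile normalisation. The medians were -2.28 and -2.75. CCNB1, the main mitotic cyclin, had 879, 982, 502, 247 and 87.6 RPM in the cow and 513, 510.1, 335, 512 and 35.1 RPM in the pig. Both species had their lowest CCNB1 level in the blastocyst. CCNB1 was picked out after its values were seen.

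CCND3, CDKN1A and CCND2 had the widest ranges over the 5 stages, by the smaller of both species' ranges. For each, the shared symbols were ranked by Pearson correlation of log2(RPM + 1) over the 10 libraries after centring within species. The 10 points share each library's depth and composition with the gene compared, and the correlations describe these libraries only. CCND3 was most alike RHOC (r = 0.982), VAT1 (0.962) and ACTG1 (0.957) of 6278 symbols. CDKN1A was most alike RAD9A (r = 0.978), AP2A1 (0.974) and LGALS4 (0.972). Each of these 6 genes was highest in the blastocyst library of both species. CCND3 and CDKN1A peaked there too, so ranking by correlation with them favours genes with that peak. CCND2 was most alike PMEPA1 (r = 0.965), ANKMY2 (0.934) and RUNX1 (0.931) of 6279 symbols. PMEPA1 had 22.4 RPM in the cow blastocyst and 0 reads in the other cow libraries, and 16.3 RPM in the pig morula and 0 reads in the pig blastocyst. The rows of RAD9A and AP2A1 in both tables, and of RHOC, ACTG1 and ANKMY2 in the pig, overlap another row.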

How the data were processed

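The deposited tables hold 1 row per gene and 1 column per stage, as log2 values scaled by the authors. In each column the values corresponded to whole reads (100% within a relative tolerance of 0.0001), with 0 reads written as 0.9 of a read, so RPM and reads were recovered from them. Per the submitters' processing notes, Trim Galore 0.6.4 and HISAT2 2.1.0 were used with the builds UMD3.1 and Sscrofa11.1, taken here as the cow and the pig build by their names. The counting tool, annotation and strand handling are not given in the sources used here. Per the labels' protocols, RNA was isolated with PicoPure, amplified with Ovation RNA-Seq V2 and given 8 PCR cycles. No molecular identifiers are described, so reads are not independent molecules.

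Differences of log2(RPM + 1), with 0 reads as deposited, were computed within a species between consecutive stages and from oocyte to blastocyst, for rows with at least 1 RPM in 1 of both libraries. Levels carry 95% Wilson intervals and folds 95% exact conditional intervals (Python 3.11.15, scipy 1.17.1, pandas 2.3.3). No test was run. Every member is given in every library. Other G1/S genes are named where they passed 10 RPM and the threshold in both species, and alike genes as the 3 highest correlations for the 3 members of widest range. The members and gene lists were chosen with earlier results of these data known. Positions are those of the deposited tables. The procedure was tested on simulated data. A companion gene list of the design is not reported here.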

Additional observations from a re-analysis of the deposited data

Results flagged for a closer look

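In 3 genes the cow and the pig libraries moved in opposite directions over the same pair of stages with both counting intervals of the fold away from 1. These differences between the species were not tested, because each stage had 1 library. CCND2 differed by 3.27 in the cow and -2.10 in the pig from morula to blastocyst, on the log2(RPM + 1) scale. CDKN1B differed by -0.78 in the cow and 2.51 in the pig from the 8-16 cell library to the morula. From oocyte to blastocyst it differed by -1.10 in the cow and 1.35 in the pig. CCNA1 differed by -0.88 in the cow and 1.51 in the pig from oocyte to blastocyst, where the pig oocyte held 1 read.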

How the results depend on the processing

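Each member's differences and the counts were recomputed under 9 alternatives (pseudocounts of 0.5 and 2, no minimum and a minimum of 5 RPM, a threshold of 1, 3 other scalings and summed rows) and 2 others chosen after seeing the data. The number of pig members called from 8-16 cell to morula, 1 as reported, was 2 with a pseudocount of 0.5, 0 with a pseudocount of 2, 2 with scaling to non-mitochondrial reads and 2 with 0 reads taken as 0. From oocyte to blastocyst the pig count was 3 with a pseudocount of 0.5, as CCND1 was added. From morula to blastocyst, pig CCND2 was not called with a pseudocount of 2, median scaling or quantile normalisation. Cow CDKN1A was called there with a pseudocount of 0.5, median scaling or scaling to non-mitochondrial reads. With a threshold of 1 the counts were 2 (cow oocyte to 2-4 cell), 3 (cow 8-16 cell to morula), 7 (cow morula to blastocyst), 1 (pig 2-4 cell to 8-16 cell), 3 (pig 8-16 cell to morula) and 5 (pig oocyte to blastocyst). That threshold also added CCNE2 (1.03) and CDKN1B (-1.10) in the cow from oocyte to blastocyst. In the pig it added CCNE2 (-1.19) from morula to blastocyst. The share of all rows that passed a threshold of 1 is not given here. Without the overlapping pig rows, 1 pig member was called from oocyte to blastocyst, and 1 of 3 kept the same direction in both species. No called difference changed sign. Of 660 alternative values for the 76 differences of members, 6 had another sign, all of differences under the threshold. From oocyte to blastocyst, scaling to non-mitochondrial reads moved the median of all cow rows by 0.41, and quantile normalisation moved it by -0.20 in the cow and -0.41 in the pig. No paired analysis was possible because each stage of each species had 1 library and the groups share no more than 1 replicate number. Pig members other than CDK2, CCND3 and CDKN1A held at most 25 reads in a library, which limits what their stages can show.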
